A study of Mus musculus with 2 samples.

Results

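Translation initiation factors are the proteins that bring the small ribosomal subunit, the initiator methionyl-tRNA and an mRNA together at a start codon. Their genes were taken as every symbol from Eif1 to Eif6 in both deposited tables, leaving out the eIF2 kinase genes (symbols starting with Eif2ak) and pseudogenes (symbols with -ps). This gave 54 genes of 55487 named genes, and the rule reads symbols only, not expression values. Transcripts had been sequenced in LPC-HRas cells, labelled as a mouse liver hepatocellular carcinoma cell line, after infection with a lentivirus carrying a short hairpin RNA. One group carried shRFP, the control hairpin, and the other shETV4, a hairpin against the ETS transcription factor gene Etv4; the labels give the line no other treatment, and they name 1 hairpin per target. Each group is a single library in the files; the meaning of the suffix _2 in both headers (a replicate number, a run or something else) is unknown. With 1 library each, nothing was tested and no difference has a replicate check. Values are TPM, a transcript abundance scaled to transcript length and to a fixed library total; depth is unknown, and no counting error can be given.

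In textbook terms, eIF2 with GTP carries the initiator tRNA, eIF2B recharges eIF2 with GTP, and eIF3 is the large scaffold that holds the small subunit. The eIF4 proteins bind the cap of the mRNA and unwind its leader, with the 4E-binding proteins as inhibitors of cap binding. eIF1 and eIF1A guard start codon choice, eIF5 triggers GTP hydrolysis by eIF2, eIF5B joins the subunits, and eIF6 keeps free large subunits apart from small ones. Growing tumour cells are known to depend on these factors, and several of the genes are known MYC targets.

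The differences between the libraries went with the base composition of the transcripts, so stretches of 4 coding sequences are shown first, 2 from genes well below their control level and 2 from genes near or above it. Each is 60 coding bases from the longest coding transcript of the gene (GENCODE M21, GRCm38), the first in-frame stretch whose share of G and C is closest to that of the whole coding sequence. Capitals mark G and C.
Eif2s2: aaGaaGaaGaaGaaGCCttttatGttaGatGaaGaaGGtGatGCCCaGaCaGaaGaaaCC
Eif5: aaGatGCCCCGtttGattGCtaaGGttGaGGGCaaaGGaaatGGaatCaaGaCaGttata
Eif2b2: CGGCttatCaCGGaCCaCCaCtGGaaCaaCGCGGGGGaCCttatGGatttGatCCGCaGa
Eif5a: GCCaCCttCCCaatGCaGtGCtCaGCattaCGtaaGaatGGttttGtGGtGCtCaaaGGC
The Eif2s2 stretch lies in exon 2 of 9 at chr2:154888268-154888327 on the minus strand, and the Eif5a stretch in exon 3 of 7 at chr11:69919211-69919270 on the minus strand. The Eif5 stretch, chr12:111539664-111539836 on the plus strand, and the Eif2b2 stretch, chr12:85219691-85219847 on the plus strand, each cross 1 intron. G and C made up 39.9% of the Eif2s2 coding sequence, 42.0% of that of Eif5, 56.3% of that of Eif2b2 and 50.4% of that of Eif5a.

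The hairpin's target, Etv4, stood 4.52-fold lower with shETV4, at 16.2 against 73.2 TPM. Hepatocyte markers were nearly absent: none of 8 reached 1 TPM in either library, and Alb was listed at 0 in both. Of the biliary and progenitor list 3 of 5 reached 1 TPM (summed level 479 and 558 TPM), of the stellate and fibroblast list 3 of 5 (627 and 845 TPM), of the leukocyte list 1 of 6 (1.07 and 2.12 TPM) and of the endothelial list none of 4 (1.38 and 1.49 TPM). The part of these markers in the results below was not tested. Fewer cells of a type and less RNA per cell cannot be told apart in such libraries.

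Of the 54 genes, 48 reached 1 TPM in at least 1 library, and these are called measured here. Together they held 12178 TPM with shRFP and 10644 TPM with shETV4, which makes 0.874 of the control sum. Differences are log2(TPM + 1) with shETV4 minus log2(TPM + 1) with shRFP, a scale on which low-level genes differ by less than their plain ratio. Pairs of TPM give the shRFP library first. Genes at a difference of 1 or more are called higher and those at -1 or less lower, which is the 2-fold limit; every fold printed next to a pair of TPM levels is their quotient.

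No initiation factor gene was called higher, against 3.39% of all 12968 measured genes, and 6 of 48 (12.5%) were called lower, against 7.06% of all. The 6 were Eif5, Eif2s2, Eif2a, Eif5b, Eif3j1 and Eif3a, from the eIF2, eIF3 and eIF5 families. The median difference was -0.22, where that of all measured genes was -0.10, and 39 of the 48 (81.2%) lay below 0, against 58.3% of all. The shift was thus shared by most members but small for most of them, since 42 of the 48 stayed within 2-fold. The deposited scale carried part of it: the trimmed mean of log ratios over all genes lay at -0.13, and with it divided out 30 of 48 were below 0 at a median of -0.10, while the median of all genes was 0.02.

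**Figure D1:**
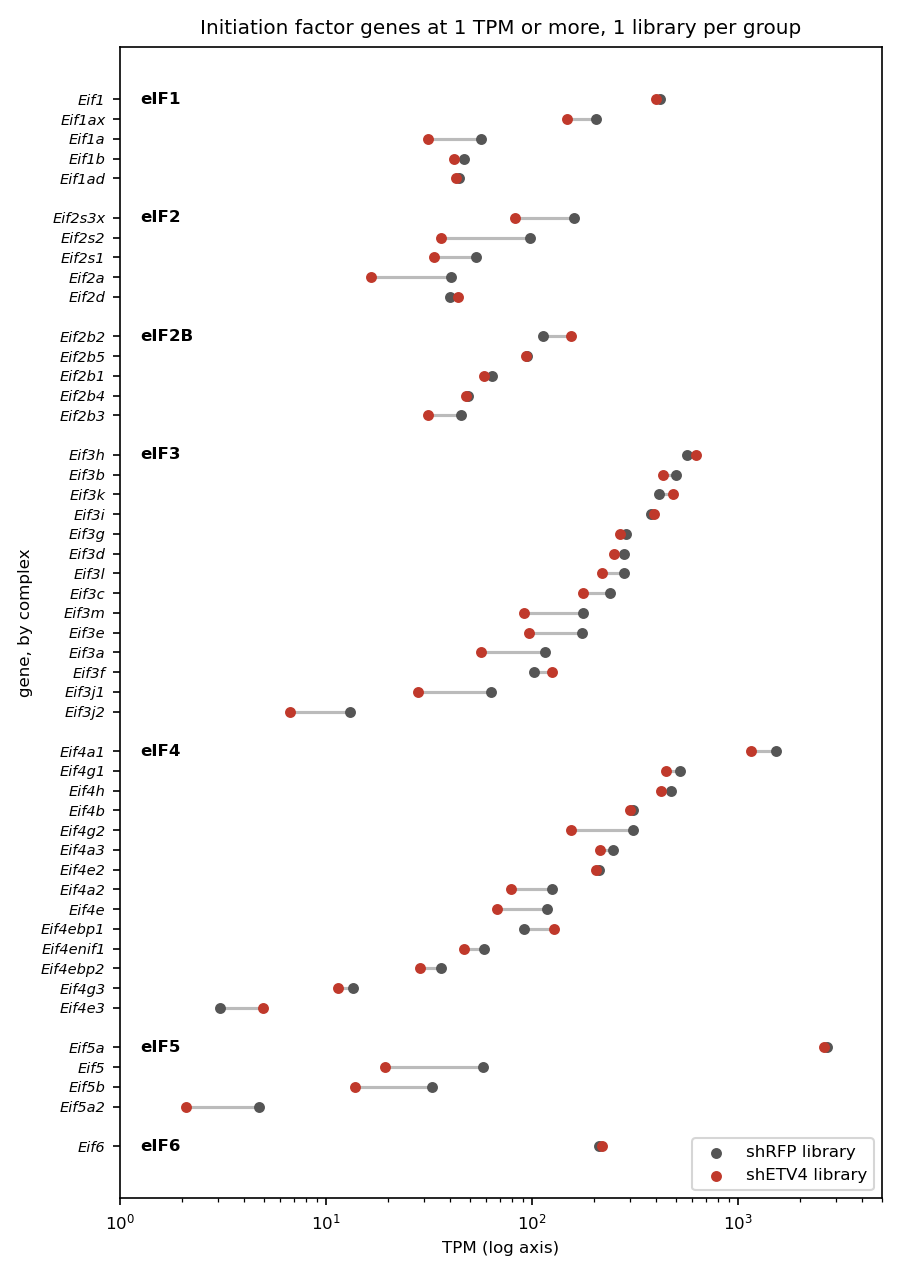
TPM of the 48 measured initiation factor genes (log axis) in the shRFP library (grey) and the shETV4 library (red), 1 library each, grouped by complex and sorted by control level. Red points lie left of grey for 39 genes, with the widest gaps at Eif5, Eif2s2 and Eif2a, while Eif5a and Eif6 nearly coincide.

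Initiation factor genes with GC-poor transcripts lay well below their control level. Of the genes called lower, only Eif3j1, at 56.0% GC, was not among them. The GC content of a gene was the median over its annotated transcripts. All 15 measured members under 45% GC lay below 0, between -1.52 and -0.65, with a median of -0.94, and 5 of them were called lower. Of 2179 protein-coding genes of the same GC range, 92.0% lay below 0. Their median was -0.67, with 23.7% called lower. Of the 33 members at 45% GC or more, 1 was called lower (3.03%), against 2.33% of protein-coding genes in that range, and their median was -0.11, against -0.01. Across the 48 members the rank correlation between difference and GC content was 0.64, and 0.80 with the GC content of the coding sequence alone. Across 11561 measured protein-coding genes the first value was 0.57, and across 11528 with a coding sequence the second was 0.54. Genes share both libraries and are not independent replicates, so these correlations describe this pair of libraries only.

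**Figure D2:**
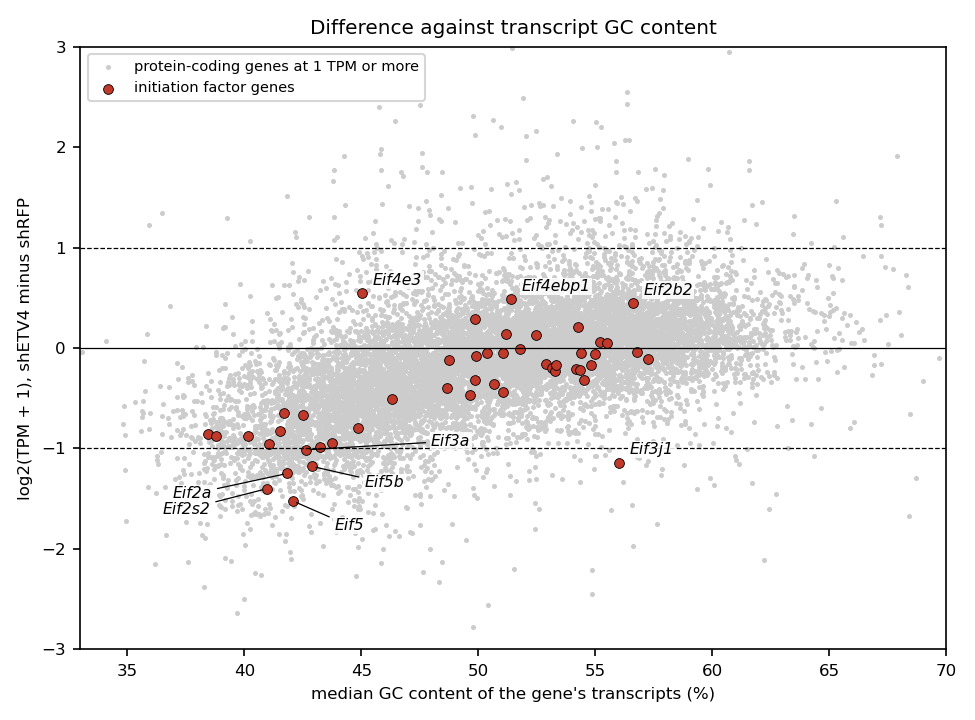
Difference in log2(TPM + 1), shETV4 minus shRFP, against the median GC content of a gene's transcripts (%), for 48 initiation factor genes (red) and 11549 protein-coding genes (grey; 12 more lie outside the axes). The members under 45% GC lie between -1.52 and -0.65, and Eif3j1 at 56.0% GC lies apart from the others of its range.

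After subtracting from every gene the typical difference of genes of like GC content (a running median), most members still lay below 0. On that scale 37 of 48 (77.1%) lay below 0, against 50.02% of all genes with a GC value, and the median was -0.16, against 0.00. One gene was called lower (2.31% of all), Eif3j1, and 1 higher (4.01% of all), Eif4e3. Taking GC content from the longest coding transcript instead left 34 of 48 below 0 at a median of -0.15, with none called in either direction; 2.94% of all genes were then called higher and 1.39% lower. Subtracting a running median over the length of that transcript as well gave 36 of 48 and a median of -0.17. The members' GC-adjusted differences also went with the length of the longest coding transcript. That rank correlation was -0.54 across the 48, and -0.19 across the 11528 protein-coding genes. With the median length of a gene's transcripts it was weaker, -0.18 across the 48 and -0.05 across 11561 protein-coding genes. The members' adjusted differences had a rank correlation of 0.07 with the median GC content used for the adjustment. With the GC content of the coding sequence it was 0.38, against 0.09 across protein-coding genes. With that of the longest coding transcript it was 0.19, against 0.09. By these 2 measures GC content was not fully evened out among the members. Other parts of the translation machinery showed different medians. The 80 measured cytosolic ribosomal protein genes had a median of 0.04, or 0.09 after GC adjustment, with 28 below 0 on either scale. The 19 cytosolic aminoacyl-tRNA synthetase genes had a median of -0.11, with 13 of 19 below 0. After adjustment their median was -0.02, with 10 of 19 below 0. These differences between families were not tested.

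**Figure D3:**
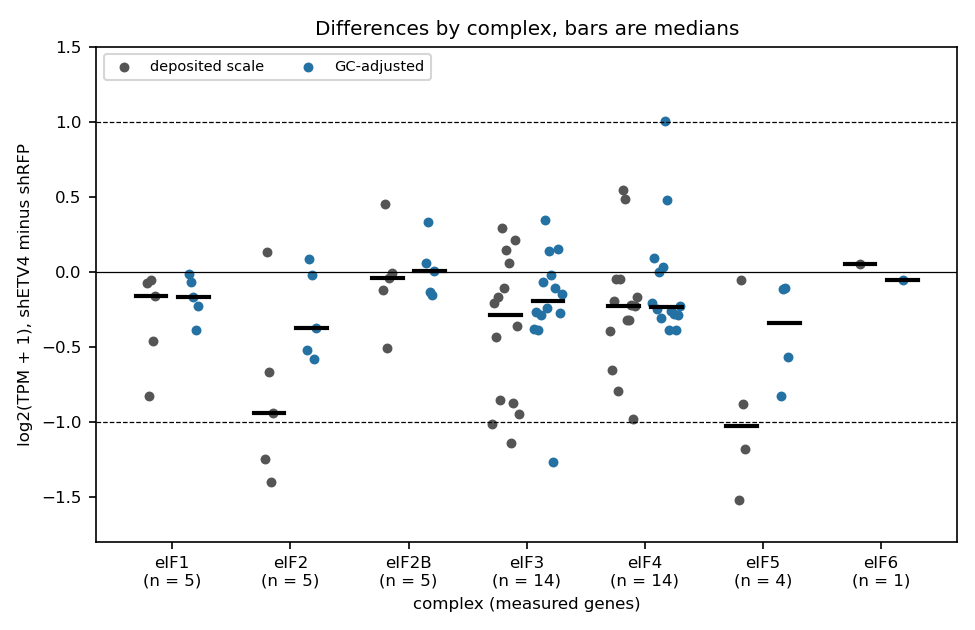
Difference in log2(TPM + 1), shETV4 minus shRFP, of the measured genes of each complex on the deposited scale (grey) and after GC adjustment (blue), with medians as black bars and the 2-fold limits dashed. The eIF2 and eIF5 medians move from -0.94 and -1.03 to -0.37 and -0.34, while those of eIF1, eIF2B, eIF3 and eIF4 move by less than 0.1.

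The genes for eIF2, the carrier of the initiator tRNA, were among the lowest. Eif2s2, the beta subunit (ENSMUSG00000074656, chromosome 2, 154871410 to 154892935, minus strand), was at 97.4 TPM in the control and 36.2 TPM in the knockdown library, 2.69-fold lower. Eif2s3x, the gamma subunit that binds GTP, was at 159 and 82.4 TPM, 1.94-fold below. Eif2s1, the alpha subunit that stress kinases phosphorylate, was at 53.6 and 33.4 TPM, 1.605-fold below. All 3 measured subunit genes thus lay below control, and their sum of 310 TPM became 152 TPM, a ratio of 0.490. After GC adjustment the differences were -0.58 for Eif2s2, -0.37 for Eif2s3x and -0.02 for Eif2s1, so the alpha subunit gene lay at the level of other genes of its GC content. Eif2s3y, the gamma subunit copy on the Y chromosome, was listed at 0 in both libraries.

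The symbols Eif2a and Eif2d belong to factors outside the eIF2 trimer that can deliver initiator tRNA without it. Eif2a (ENSMUSG00000027810, chromosome 3, 58525821 to 58557501, plus strand) was at 40.5 and 16.4 TPM, 2.46-fold lower, and at -0.52 after GC adjustment. Eif2d was at 39.8 and 43.8 TPM, the only measured gene with an Eif2 symbol, eIF2B aside, that lay above 0. At nearly the same control level, these genes therefore parted in the shETV4 library on the deposited scale. Their GC contents were 41.8% for Eif2a and 52.5% for Eif2d, and Eif2d was at 0.09 after GC adjustment.

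eIF2B, the exchange factor of eIF2, was not shifted as a group. All 5 of its genes stayed inside 2-fold and had a median of -0.04, which became 0.03 with the median ratio of all genes set to 1 and 0.09 with the trimmed mean divided out. Eif2b2, the beta subunit, was at 113 and 154 TPM, the highest difference of the complex at 0.45 and 0.33 after GC adjustment. Eif2b3, the gamma subunit, was the lowest, at 45.1 and 31.3 TPM. Eif2b5, the catalytic epsilon subunit, was at 94.1 and 93.5 TPM, Eif2b1 at 63.7 and 58.4 TPM and Eif2b4 at 49.1 and 47.7 TPM. The most abundant of these genes was 2.501 times the least abundant with shRFP and 4.93 times with shETV4. The summed level of eIF2B was 365 and 385 TPM. On the deposited scale the balance of the exchange factor's transcripts to those of its substrate thus differed between the libraries. The median GC content was 42.5% for the measured eIF2 subunit genes and 51.8% for eIF2B. Their median differences after GC adjustment were -0.37 and 0.004, and the balance was not taken again on that scale.

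eIF3 is the largest initiation factor, and its 14 genes differed from one another in direction. Eif3j1 and Eif3a were called lower, 10 lay below 0, and the median was -0.28, or -0.19 after GC adjustment; Eif3g, at -0.11, is above 0 once the scale shift is divided out. In the octamer of subunits with PCI and MPN domains, Eif3a (ENSMUSG00000024991, chromosome 19, 60761117 to 60790658, minus strand), the largest scaffold subunit, was at 116 and 56.8 TPM, 2.04-fold lower. This call sat at the threshold: the difference of -1.01 became -0.97 with pseudocount 5, -0.95 and -0.89 on the other scales and -0.38 after GC adjustment. Eif3m and Eif3e, further subunits of the octamer, had 178 and 91.4 TPM (Eif3m) and 176 and 96.8 TPM (Eif3e), just within 2-fold, and came to -0.14 and -0.07 after GC adjustment. Eif3c, the second scaffold, was at 240 and 177 TPM and Eif3l at 281 and 218 TPM. Against these, Eif3h, the most abundant gene of the complex, was at 567 and 626 TPM, Eif3k at 416 and 482 TPM and Eif3f, the least abundant of the octamer with shRFP, at 102 and 125 TPM. These 3 octamer genes lay above 0 on the deposited scale, on both other scales and after GC adjustment.

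The remaining eIF3 genes fell into 2 sets. Eif3b, Eif3g, Eif3i and Eif3d, which encode the b-g-i module and the cap-binding d subunit, all lay between -0.21 and 0.06. Eif3b was at 499 and 432 TPM, Eif3i at 376 and 393 TPM, Eif3g at 287 and 266 TPM and Eif3d at 281 and 250 TPM, the last with 43.3% of its exonic bases in exons of another gene, an antisense transcript. The sources used here do not say whether counting used strand. Leaving out eIF3j, the 12 subunit genes spanned a 5.56-fold range of TPM with shRFP and an 11.0-fold range with shETV4. On the deposited scale the transcripts of the complex were thus less even in the second library. The ends of that range with shETV4 were Eif3h at 51.2% GC and Eif3a at 42.6% GC, with differences of 0.14 and -0.38 after GC adjustment. The range was not taken again after adjustment. The range also widened for eIF2B, as given above, while that of the 3 measured eIF2 subunit genes went from 2.97-fold to 2.46-fold.

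Eif3j1 and Eif3j2 encode the loosely bound j subunit, which helps to place the small subunit before mRNA binding. Eif3j1 (ENSMUSG00000027236, chromosome 2, 122028546 to 122056598, plus strand) was at 63.0 and 28.1 TPM, 2.25-fold lower, and Eif3j2 at 13.1 and 6.71 TPM. The coding sequences differ at 2 of 783 aligned bases, an identity of 99.7%, so how reads were shared out between these copies is uncertain. Their sum of 76.2 TPM became 34.8 TPM, a ratio of 0.456. TPM is scaled to length, and the median transcript lengths are 3003.5 bases for Eif3j1 and 2379 for Eif3j2. The sum and its ratio can therefore still depend on that division. Of the exonic bases of Eif3j1, 20.2% lie in exons of another gene, of which the one sharing most bases is Spg11. Eif3j1 was the member called lower after GC adjustment, at -1.27, with a GC content of 56.0% as the median over its transcripts. Its longest coding transcript has 42.5% GC, and with that value the adjusted difference was -0.49.

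The eIF4 genes, which serve the mRNA cap, all stayed within 2-fold. Of 14 measured, 12 lay below 0, with a median of -0.22, or -0.24 after GC adjustment; Eif4b and Eif4e2, at -0.05 each, lay inside the scale shift of -0.13 and are above 0 once it is divided out. Eif4a1, the main helicase of the cap complex, was the most abundant at 1522 and 1156 TPM, and Eif4a2, its paralog, was at 125 and 79.3 TPM. Their coding sequences are 78.2% identical, and their ratio on the deposited scale was 12.2 with shRFP and 14.6 with shETV4. After GC adjustment the differences were -0.21 for Eif4a1 and 0.09 for Eif4a2. With the GC content of the longest coding transcript they were -0.15 and -0.07. Eif4a3, a helicase that works in the exon junction complex, was at 246 and 215 TPM. Of the helicase cofactors, Eif4b had 310 and 300 TPM and Eif4h 474 and 422 TPM.

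Of the 3 eIF4G scaffold genes, the one lowest on the deposited scale also had the lowest GC content. Whether GC content had a part in this was not tested. Eif4g1, the main scaffold, was at 521 and 448 TPM and Eif4g3 at 13.5 and 11.4 TPM. Eif4g2, a related scaffold without a cap-binding partner that is used in cap-independent initiation, was at 308 and 155 TPM, 1.98-fold below and just inside the limit. At a GC content of 43.2%, against 54.4% and 53.3% for the others, it came to -0.39 after adjustment, while Eif4g1 and Eif4g3 were at -0.28 and -0.29. After adjustment all 3 scaffolds were therefore below 0 by similar amounts.

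Among the cap-binding genes, Eif4e, which encodes the limiting cap-binding protein, was at 118 and 67.4 TPM, 1.75-fold below. Eif4e2, a relative that represses translation, was at 211 and 204 TPM, so it was the more abundant of the pair in both libraries. Eif4e3 was at 3.07 and 4.95 TPM, the highest difference of all members at 0.55 with a pseudocount of 1, and passed 2-fold after GC adjustment at 1.01. It is one of the lowest-level members, and with GC content taken from the longest coding transcripts it stayed just inside 2-fold, at 0.99. Eif4enif1, a transporter that brings eIF4E into the nucleus, was at 58.6 and 46.7 TPM.

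The 4E-binding proteins block eIF4E until mTOR phosphorylates them. Eif4ebp1 was at 90.9 and 128 TPM, a ratio of 1.40 and a difference of 0.48, which was again 0.48 after GC adjustment, 0.73 with the GC content of the longest coding transcript and 0.69 with length as well. Eif4ebp2 was at 36.1 and 28.7 TPM. The ratio of Eif4ebp1 to Eif4e transcripts was 0.772 with shRFP and 1.89 with shETV4 on the deposited scale. The Eif4e difference of -0.80 was -0.31 after GC adjustment and -0.002 with the longest coding transcript. This pair was set side by side after its values were seen, and protein and phosphorylation were not measured. Eif4ebp3 had 0.66 TPM in the control and was listed at 0 in the other library.

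The eIF5 family held the lowest member and the most abundant one. Eif5 (ENSMUSG00000021282, chromosome 12, 111538016 to 111546752, plus strand), the GTPase activator of eIF2, was at 57.6 and 19.4 TPM, 2.97-fold lower. It had the lowest difference of all members at -1.52, and was at -0.83 after GC adjustment by either measure of GC content, lowest of all by the longest transcript and next to Eif3j1 by the median. Eif5b (ENSMUSG00000026083, chromosome 1, 37998010 to 38055579, plus strand), the GTPase that joins the ribosomal subunits, was at 32.7 and 13.9 TPM, 2.36-fold lower, with -0.998 under pseudocount 5, just inside the limit, and -0.57 after GC adjustment. Of the exonic bases of Eif5b, 16.8% lie in exons of another gene, of which the one sharing most bases is Rev1. Eif5a, which keeps elongation moving at difficult codons and carries the hypusine modification, was at 2714 and 2616 TPM, unlike Eif5 and Eif5b nearly level. Eif5a2, its paralog with 73.2% coding identity, was at 4.71 and 2.10 TPM. That gene's difference of -0.88 became -1.13 with pseudocount 0.1 and -0.11 after GC adjustment.

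The eIF1 genes lay between -0.83 and -0.06, and none was called. Eif1, which keeps the scanning complex open until a start codon is found, was at 420 and 398 TPM and its paralog Eif1b at 46.8 and 41.7 TPM, a pair with 81.1% coding identity. Of the eIF1A genes, Eif1ax had 204 and 147 TPM and Eif1a 56.2 and 31.3 TPM. Eif1a came to -0.07 after GC adjustment, whereas Eif1ax, at -0.46 on the deposited scale, was at -0.39 or 0.32 depending on whether GC content was the median over its transcripts or that of the longest one. Eif1ad, a relative of eIF1A with a role in ribosome maturation, was at 44.4 and 42.7 TPM. Eif6 was at 211 and 219 TPM.

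The 6 members that did not reach 1 TPM in either library were Eif4ebp3 and 5 genes listed at 0 in both. The latter were Eif2s3y, the oocyte cap-binding gene Eif4e1b, the Eif4a3 copies Eif4a3l1 and Eif4a3l2, and Eif2c5, which GENCODE lists as a lincRNA and whose symbol follows an older name of the Argonaute genes. Of the 10 pseudogene records left out of the family, 1 reached 1 TPM, at 1.14 TPM.

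Genes that control or follow initiation were read from 6 lists of 58 genes in all, 57 of them measured; none was called higher and 5 were called lower (8.77%; background above). Abce1, which recycles ribosomes after termination, was at 77.2 and 23.9 TPM, 3.23-fold lower. Ddx3x, a helicase for structured leaders, was at 146 and 51.5 TPM, 2.84-fold lower. Larp4, a poly(A)-binding La-related protein, was at 18.9 and 6.49 TPM. Etf1, the stop codon release factor, was at 99.4 and 48.3 TPM, and Ppp1cb, a catalytic subunit of phosphatase 1, at 45.7 and 21.5 TPM. None of these 5 passed 2-fold after GC adjustment. Abce1 and Ddx3x, at -0.87 and -0.84 on that scale, were the lowest of the 57.

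By list, the 3 release factor genes had a median of -0.81 and the start site and recycling helpers -0.58 over 13 genes, with 11 below 0. After GC adjustment these medians were -0.50 and -0.24. The release median of -0.81 is the value of Gspt2, a low-level gene at 2.9 and 1.22 TPM. Etf1 and Gspt1 were at -1.03 and -0.73. The eIF2 kinase and phosphatase list stood at -0.14 over 14 genes. Within it the interferon-inducible kinase gene Eif2ak2 was at 20.4 and 20.9 TPM, the stress transcription factor Atf4 at 231 and 199 TPM and Ddit3, which encodes CHOP, at 32.9 and 51.0 TPM. For cap-binding control the median was -0.22 over 14 genes, with Mtor at 20.3 and 17.3 TPM, the eIF4E kinase gene Mknk2 at 48.3 and 69.1 TPM and Larp1, a repressor of ribosomal protein mRNAs, at 112 and 74.5 TPM. All 5 genes of the poly(A)-binding protein list lay below 0 at a median of -0.24, with Pabpc1 at 798 and 749 TPM; Pabpc1 and Pabpc4, at -0.09 and -0.10, lay inside the scale shift, and the median was 0.18 after GC adjustment. Elongation genes were nearly level at a median of -0.03 over 8 genes, with Eef2 at 1847 and 1860 TPM. Of the enzymes that make the hypusine of eIF5A, Dhps had 68.5 and 79.8 TPM and Dohh 78.8 and 84.9 TPM, both within 2-fold as Eif5a was.

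**Figure D4:**
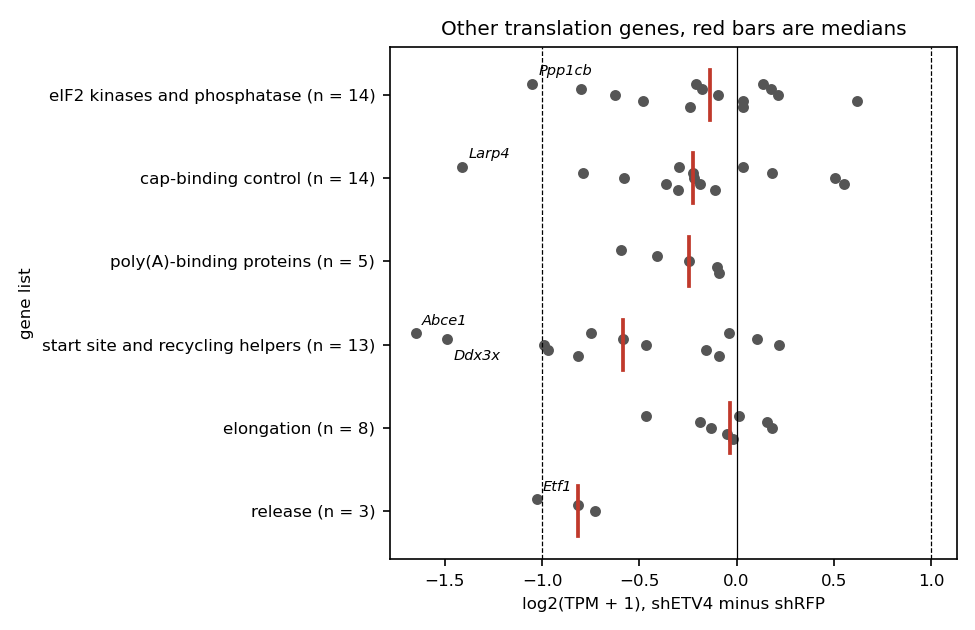
Difference in log2(TPM + 1), shETV4 minus shRFP, of 57 measured genes on 6 other translation lists, with list medians as red bars and the 2-fold limits dashed. The 5 named genes lie past the lower limit, led by Abce1 at -1.65, and none passes the upper one.

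Since the hairpin targets an ETS factor and several of the genes are known MYC targets, promoters were read for an ETS motif (CCGGAAGT) and for the E-box (CACGTG), each on both strands; neither motif contains the other. RefSeq promoters (GRCm38.p6, 250 bases before to 50 after a start site) were found for 38 of the 48 measured members. The ETS letters stood in promoters of 7 of the 38 (18.4%), against 9.69% of 9184 measured protein-coding genes with a promoter and 4.31% of all 27025 genes of the table. The E-box stood in 10 of 38 (26.3%), against 12.0% and 8.09%. All 6 members called lower had a promoter entry; none held the ETS letters and 1, Eif3a, the E-box. The following stretches, 5′ to 3′ in the direction of the gene with the motif in capitals, show matches upstream of the start site; an ETS match on the other strand reads ACTTCCGG.
Eif3d, ETS: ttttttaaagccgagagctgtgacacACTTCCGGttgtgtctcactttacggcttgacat
Eif3l, ETS: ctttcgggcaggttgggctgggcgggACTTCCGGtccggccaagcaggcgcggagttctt
Eif5a2, ETS: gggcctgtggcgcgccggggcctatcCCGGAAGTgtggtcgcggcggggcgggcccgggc
Eif4e, E-box: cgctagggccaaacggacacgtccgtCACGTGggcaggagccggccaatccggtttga
Eif4g1, E-box: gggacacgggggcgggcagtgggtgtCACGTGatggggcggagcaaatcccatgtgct
Their positions are chr15:77970862-77970921 (minus strand) for Eif3d, chr15:79075161-79075220 (plus) for Eif3l, chr3:28781215-28781274 (plus) for Eif5a2, chr3:138527178-138527235 (plus) for Eif4e and chr16:20672647-20672704 (plus) for Eif4g1. The differences of the 7 genes with ETS letters ranged from -0.88 for Eif5a2 to 0.45 for Eif2b2, with 6 below 0 and 1 above. Of all measured members 39 of 48 lay below 0, and of the genes with the E-box 8 of 10. Eif2b4, Eif4e2 and Eif5a, at -0.04, -0.05 and -0.05, are above 0 once the scale shift is divided out. Eif5a2, at 4.71 and 2.10 TPM, came to -0.11 after GC adjustment. A link between motif and direction was not tested. Myc itself was at 280 and 264 TPM.

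Several initiation factor genes have small RNA genes within their bounds. Inside the measured members, on the same strand, lie 22 annotated snoRNA, miRNA and snRNA genes, of which 18 were listed at 0 in both libraries. The other 4 were snoRNA genes of Eif4a1 and Eif4a2, called higher with shETV4 while their hosts were below control. Of all 27 measured snoRNA genes 70.4% were called higher and 14.8% lower, so this direction was that of most snoRNA records. Gm22988, in Eif4a1, was at 32.5 and 136 TPM, and Gm25835 and Gm24029, in the same gene, were listed at 0 in the control and reached 56.1 and 4.54 TPM. Gm24616, in Eif4a2, was listed at 0 and at 34.1 TPM. Short records such as these gain high TPM from few reads, and 6.62% of the exonic bases of Eif4a1 lie in exons of another gene, of which the one sharing most bases is Gm22988.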

How the data were processed

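Per the labels' protocols, libraries came from total RNA with a TruSeq kit for Illumina. The authors deposited 1 TPM value per gene for each of 2 libraries; the headers name no unit, and TPM was read from the totals of 999999.77 (shRFP) and 999870.3 (shETV4). HISAT2, RSEM and the build GRCm38.p4 are named without roles in the submitters' processing notes; for the annotation, the use of strand and any filter the sources used here give nothing. Of 55640 records, 153 without a symbol stayed out (1.13% and 2.67% of the TPM).

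A pseudocount of 1 TPM, a minimum of 1 TPM in either library and a 2-fold limit were used. GENCODE M21 gave coordinates, GC content, length and exon overlap for all 54 members and 99.4% of named records. GC adjustment subtracts the median difference of 50 GC bins, interpolated. Lists of other translation genes stand in their results; members and lists were chosen with earlier results of these data known. All members are named, and other translation genes past 2-fold or chosen to show their list, the latter after their values were seen. Alternatives changed pseudocount, filter, scale, limit, gene set and GC adjustment; adjustments on the longest coding transcript were added after the data were seen. Calls and adjustment were tested on simulated data. Biopython 1.88, matplotlib 3.10.9, scipy 1.17.1, pandas 2.3.3, numpy 2.4.6 and Python 3.11.15 were used.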

Additional observations from a re-analysis of the deposited data

How the results depend on the processing

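With 1 library per group no replicate could be left out, and depth limits cannot be stated for TPM. No paired analysis was possible because each group has a single library. The 6 initiation factor genes called lower became 7 with pseudocount 0.1 and 4 with pseudocount 5. They became 5 with the median ratio set to 1 or with the trimmed mean divided out. With GC adjustment 1 was left, and with either adjustment on the longest coding transcript 0. At 1.5-fold 16 of 48 were called lower, against 2591 of all 12968 genes (20%). At 3-fold 0 of 48 were, against 162 of 12968. The 0 called higher became 1 with GC adjustment. The 5 other translation genes called lower became 7 with pseudocount 0.1. They became 3 with pseudocount 5, with the median ratio set to 1 or with the trimmed mean divided out. With any of the 3 GC adjustments 0 were left. Of these 57 genes 15 were called lower at 1.5-fold and 1 at 3-fold, to be read against the same background, and 1 was called higher at 1.5-fold. The eIF2 median of -0.94 became -0.37 with GC adjustment, -0.43 on the longest coding transcript and -0.47 with length as well. The eIF5 median of -1.03 became -0.72 with pseudocount 5 and -0.34, -0.41 and -0.37 with the same 3 adjustments. The medians of the whole family and of the other complexes moved by 0.2 or less (log2) under each alternative, though the eIF2B median changed sign on both other scales and with GC adjustment, that of eIF1 with GC adjustment on the longest coding transcript and that of eIF6 under all 3 GC adjustments. The cause of these changes was not tested beyond what each adjustment removes.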
